A study of Mus musculus with 12 samples.

Results

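Replacement histone variants are histones that cells make outside S phase and place into chromatin that is already assembled. The 8 genes of this kind followed here by name were the H3.3 genes H3f3a and H3f3b, the H2A.Z genes H2afz and H2afv, H2afx (H2A.X), H2afj (H2A.J), H2afy (macroH2A1) and H1f0 (linker histone H1.0). All 8 were among the 23230 genes of the table, and all 8 were among the 11502 genes with at least 1 FPKM (mapped fragments normalized to exon length and to library size) in at least 1 of the 12 libraries.

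Each of 6 groups had 2 Smart-seq2 libraries, each from 10 pooled oocytes, of WT and Zar1/2-null females of a C57BL6/ICR hybrid background. Zar1/2-null mice carried CRISPR/Cas9-made null alleles of both Zar1 and Zar2, which encode RNA-binding proteins of the oocyte, in every cell of the animal. Growing oocytes came from mice labelled 13.5 days old (the methods give a slightly younger age), fully grown germinal vesicle (GV) oocytes from 21-day-old mice 44 h after PMSG, and ovulated oocytes labelled MII from oviducts 16 h after hCG. No agent other than these hormones was given. Many ovulated Zar1/2-null oocytes had not completed meiosis I by the study's own account, so genotype and meiotic stage cannot be told apart in the MII comparison. The paper also held maturing oocytes in meiosis I with nocodazole and found the decay of selected mRNAs unaffected. It proposes that the delayed decay came from the lack of ZAR1/2. No such oocytes are among these libraries. Nothing says that the 2 libraries of a group came from separate mice, so the p-values measure the spread between libraries, which may be technical.

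A fully grown oocyte whose nucleolus is surrounded by chromatin has ceased transcription, and the early embryo works from the mRNA it stored. The paper still detected RNA synthesis in GV oocytes without that configuration, and the labels do not tell these types apart. Most histone mRNAs end in a stem-loop in place of a poly(A) tail and are made while DNA replicates. Replacement variants have their own genes, mostly with introns and polyadenylated mRNAs, and these supply a non-dividing cell such as the oocyte. H3.3 enters transcribed genes and, after fertilization, the paternal genome, H2A.Z sits beside promoters and in heterochromatin, H2A.X is phosphorylated at DNA breaks, and macroH2A and H1.0 are linked to compact chromatin. Smart-seq2 primes on poly(A), so fewer transcripts, shorter tails and a transcript that is never tailed cannot be told apart in these values.

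The ends of the mRNAs are therefore shown first, because they bear on what oligo-dT primes. The sequences are from the mm9 (NCBIM37) genome and its GENCODE annotation, on the sense strand, and the capitals mark the motif. H2afx is an intronless gene on the plus strand at chr9:44142798-44144154, and its 3′ UTR of 878 bases holds both kinds of histone mRNA end: a histone stem-loop 47 bases into the UTR and, 23 bases before the annotated end, the poly(A) signal variant ATTAAA.
H2afx histone stem-loop: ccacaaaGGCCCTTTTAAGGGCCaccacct
H2afx poly(A) signal: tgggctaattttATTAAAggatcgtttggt
The stem-loop was present in 0.236% of the 19485 annotated 3′ UTRs and in no other member with an annotated 3′ UTR. ATTAAA was present within the last 100 bases in 20.5% of 17596 genes. In H2afx it overlaps TTTTAT, a cytoplasmic polyadenylation element, which 13.7% of genes carry in that window.

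H2afz lies on the plus strand at chr3:137527451-137529886 with 5 exons. Its 3′ UTR of 475 bases has ATTAAA near the annotated end, AATAAA further upstream, and an ATTATCT just after the stop codon. ATTATCT and ATTGTCT are forms of the translational control sequence that Zar proteins of the frog bind, and 14.7% of all 3′ UTRs held one of them. No other member with an annotated 3′ UTR had either.
H2afz poly(A) signal: ctctgcttactaATTAAAcagtgcatctgt
H2afz upstream signal: gtggataagctcAATAAAggtcatatccca
H2afz translational control sequence: ctggattccttATTATCTcaggactctaa
H2afv, the second H2A.Z gene, lies on the minus strand at chr11:6327229-6344446 and ends in AATAAA. Its 3′ UTR of 1142 bases holds 4 copies of TTTTAT. H2afz has none of these but holds 1 copy of TTTTAAT, another form of the cytoplasmic polyadenylation element, which H2afv lacks. TTTTAT was present in 44.5% and TTTTAAT in 22.9% of all 3′ UTRs.
H2afv poly(A) signal: caaatgcacagaAATAAAgaaactagcact
H2afv last TTTTAT: tttgaagaaataTTTTATtatggaagttct

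The H3.3 genes are on the minus strand at chr1:182730963-182744074 (H3f3a) and chr11:115883226-115889276 (H3f3b), and both have AATAAA within their last 100 bases, as do 64.4% of genes. The copy shown lies 16 bases before the annotated end in H3f3a but 87 bases before it in H3f3b, and further copies lie upstream in both. Their 3′ UTRs, of 2245 and 1495 bases, are the longest of the members.
H3f3a poly(A) signal: aatttgaaaaatAATAAAagtaccaataga
H3f3b poly(A) signal: ataggccttacaAATAAActagtaagtttg
H2afj is a single-exon gene on the plus strand at chr6:136756769-136758595 that also ends in AATAAA. H2afy, on the minus strand at chr13:56174980-56237722, had neither AATAAA nor ATTAAA in its annotated 3′ UTR of 608 bases. H1f0, on the plus strand at chr15:78859152-78859689, is annotated as a pseudogene without a coding transcript in this build, and no 3′ end of it was read. Only the sense strand was searched, and a match of letters is a description, not a site in use.

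Members differ in how much of their mRNA can be read at all, because only uniquely mapped reads were kept. Of the 50-base windows of the H2afz transcript, 83.5% also occur elsewhere in the genome, with a copy 99.89% identical over 866 aligned bases at chr6:116123650-116124515. The share was 32.4% for H3f3a, 25.6% for H3f3b, 6.27% for H2afx and 2.53% for H2afj, and 0 for H2afy and H2afv. H1f0 had no annotated coding transcript, so its windows were not examined and its share is unknown. Levels compared between members are therefore uncertain for H2afz and the H3.3 genes, while the same windows count in every library. Exons of H3f3a also overlap Gm16067 and Gm17275 on the opposite strand, and Smart-seq2 does not keep the strand.

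The deposited values are FPKM multiplied by a factor for the ERCC spike-in RNA added to each lysate, so they estimate RNA per oocyte relative to WT growing oocytes. The factor was 1 in both WT growing libraries, and each other library was scaled to the WT growing library of the same replicate number. It was between 0.225 and 0.283 in the 4 MII libraries. The depth behind each value is unknown, and no counting interval can be given. Zar1l (Zar2) fell from a mean of 641.7 to 15.3 FPKM in growing oocytes, from 518.7 to 20.3 at GV and from 3.92 to 1.19 at MII. Zar1, whose null allele is a small deletion with a stop codon, had means of 664.2 and 433.5, 430.9 and 169.4, and 78.0 and 191.6 FPKM in WT and null oocytes of the same stages. All 12 oocyte markers examined reached 1 FPKM in every group except WT MII, where 11 did. Of 14 granulosa and cumulus markers, 1 to 4 reached it, and their summed level was 22.9 to 26.6 FPKM in WT growing, 6.26 to 10.9 in null growing and 4.21 to 15.2 in the other groups. Amh and Ptx3 were listed at 0 in both growing groups. Cyp19a1 was at 19.0 and 16.7 FPKM in the WT and at 7.72 and 2.53 in the null growing libraries. Inha and Kitl had means of 2.75 and 2.44 FPKM in WT growing and 1.68 and 0.461 in null growing oocytes. Of 7 immune and blood markers, 5 were listed at 0 in each growing group, and Cd68 had means of 0.727 FPKM in WT and 3.04 in null growing oocytes.

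The H3.3 genes held most of the summed FPKM of the 8 genes in every library. H2afz is read from few unique windows, so these shares are of the FPKM as listed and not of mRNA. H3f3a and H3f3b together took 85.5 to 86.1% of the summed FPKM of the 8 genes in WT growing oocytes, 80.8 to 85.0% in null growing, 89.3 to 90.2% at WT GV, 89.9 to 90.1% at null GV, 94.9 to 95.5% at WT MII and 97.9 to 98.0% at null MII. The order of mean levels in WT growing oocytes, in FPKM (per length), was H3f3a (750.6), H3f3b (596.8), H2afz (129.4), H2afx (38.6), H2afv (31.0), H2afy (10.0), H1f0 (7.67) and H2afj (6.90). Only H1f0 and H2afj overlapped there as neighbours. At WT MII the order was H3f3b (311.1), H3f3a (195.4), H2afz (18.6), H1f0 (2.63), H2afv (1.89), H2afx (1.43), H2afy (0.720) and H2afj (0.0618), with no overlap between neighbours. At null MII, H2afx (8.17) was listed next after the H3.3 genes, above H2afz (3.69), a gene of which few windows can be read, and H2afy (1.53) and H1f0 (1.30) overlapped.

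**Figure D1:**
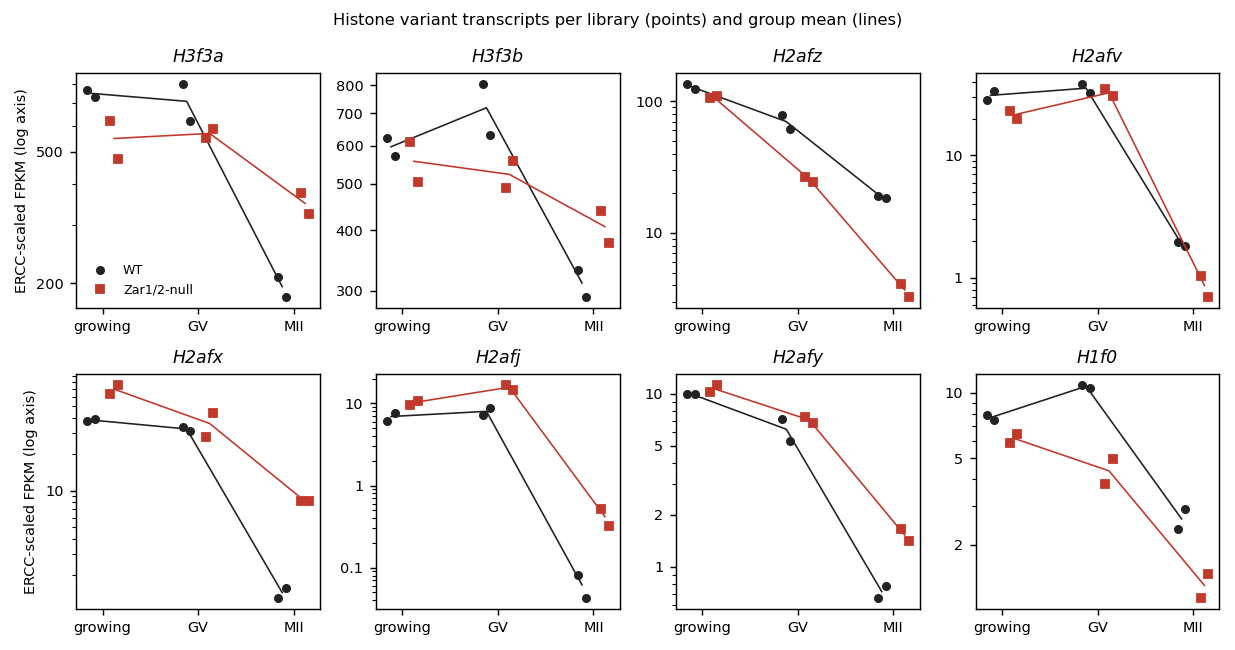
ERCC-scaled FPKM (log axis, a separate scale in each panel) of the 8 variant genes in WT (black circles) and Zar1/2-null (red squares) oocytes at the growing, GV and MII stages. Points are single libraries and lines join group means of 2 libraries. H2afz falls further in null oocytes, from 107.3 to 3.69 FPKM, while H2afx ends higher, at 8.17 against 1.43 FPKM.

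Growing oocytes already differed by genotype in 3 of the 8 genes by limma at an adjusted p of 0.05. H2afx and H2afj were higher and H2afv was lower in Zar1/2-null oocytes, whereas 10.6% of all 11502 genes were higher and 24.4% lower. The median log2 fold change was -0.19 over the members and -0.16 over all genes. Leaving out the second null growing library left 0 of these 3 calls. Without the ERCC factor, and with libraries set to equal medians, H2afv did not pass the test (adjusted p = 0.304 and 0.183, limma), and 2 members were higher and 0 lower. Of all 11502 genes 3123 and 2693 were called in either direction under these scalings, against 4025 with the factor.

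At GV the picture was different, with H2afz and H1f0 lower and H2afj higher, against 2.83% of all genes higher and 40.6% lower. The median over the members was -0.21, beside -0.38 over all genes. With the ERCC factor removed, 2 members were higher and 2 lower, and 2381 of all 11502 genes were called in either direction, against 4991 with the factor. With libraries set to equal medians, 3 members were higher and 2 lower, since H2afx and H2afy then passed the test, and 2164 of all genes were called.

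The genotype differences farthest from 0 were those of H2afz and H2afx at MII. H2afx, H3f3a and H2afy were higher and H2afz, H1f0 and H2afv lower in Zar1/2-null oocytes, against 21.5% of all genes higher and 10.3% lower. The median was 0.40 over the members and 0.06 over all genes. H2afj joined the higher genes both without the ERCC factor and with equal medians (4 higher and 3 lower). Of all 11502 genes 5525 and 6179 were then called in either direction, against 3655 with the factor.

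**Figure D2:**
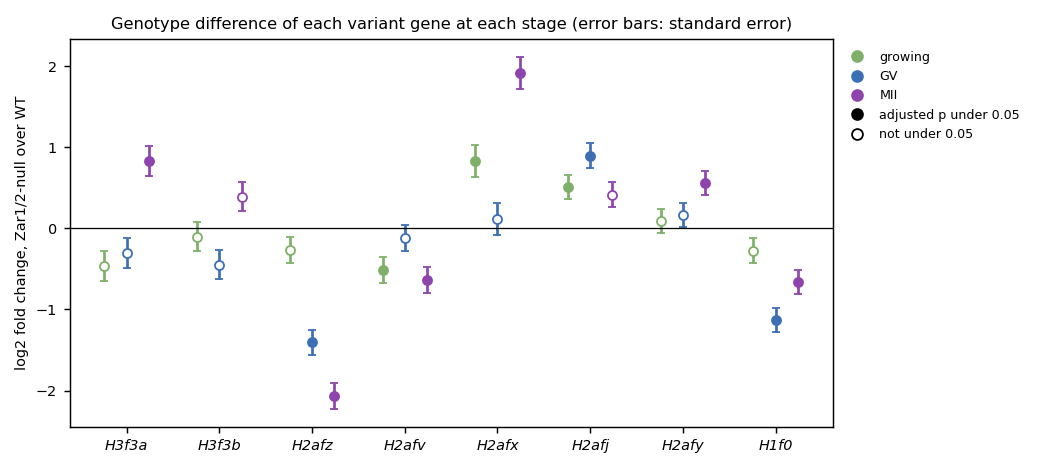
Log2 fold change of Zar1/2-null over WT on the log2(FPKM + 1) scale, with its standard error, for each variant gene at the growing, GV and MII stages. Filled points have a limma adjusted p under 0.05. At MII H2afx (1.92) and H2afz (-2.07) lie farthest from 0, in opposite directions.

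H3f3a, one of the 2 genes that encode an identical H3.3 protein, was at 768.8 and 732.5 FPKM in the WT growing libraries and at 619.9 and 476.7 in the null ones. At GV it was at 801.7 and 618.5 in WT and 551.3 and 584.8 in null oocytes. No null value reached a WT value at either stage, but neither difference passed the test (adjusted p = 0.0726 and 0.190, limma). With a replicate block the growing difference passed it (adjusted p = 0.0220). The null libraries lay wholly below the WT libraries for 47.4% of all genes in growing oocytes and 63.6% at GV. The GV difference of H3f3a was -0.31, beside a median of -0.38 over all genes, and 0.14 without the ERCC factor. At MII both null values were above the WT values, as for 43.5% of all genes. The WT libraries were at 209.2 and 181.7 and the null libraries at 374.6 and 323.3. The difference was 0.83 ± 0.18 (SE) on the log2 scale, a 1.79-fold higher mean (adjusted p = 0.00476, limma).

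H3f3b, the other H3.3 gene, was at 623.8 and 569.8 FPKM in WT growing oocytes, 610.2 and 503.5 in null growing, 806.1 and 632.2 at WT GV, and 488.9 and 557.1 at null GV. At MII its 4 values were 331.4 and 290.8 in WT and 438.1 and 376.5 in null oocytes. The groups overlapped in growing oocytes and were separate at GV (null lower) and MII (null higher). No genotype difference passed the test (adjusted p = 0.683, 0.0616 and 0.130, limma). With a replicate block the GV difference passed it (adjusted p = 0.0227). Of all genes, 63.6% were likewise separate and lower at GV, and 43.5% separate and higher at MII. The GV difference of H3f3b was -0.45, beside a median of -0.38 over all genes, and 0.0015 without the ERCC factor.

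The ratio of H3f3b to H3f3a within a library does not depend on the ERCC factor. It was 0.811 and 0.778 in WT growing oocytes and 0.984 and 1.06 in null growing ones, 1.01 and 1.02 at WT GV and 0.887 and 0.953 at null GV. At MII it was 1.58 and 1.6 in WT and 1.17 and 1.16 in null oocytes. The ratio was thus higher at each later stage in WT oocytes and spanned a narrower range in the null libraries. With 2 libraries against 2, an exact permutation test cannot give a two-sided p below 0.333, so the ratios are described without a test.

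H2afz encodes the main form of H2A.Z. It was at 135.2 and 123.6 FPKM in WT growing oocytes and at 105.8 and 108.9 in null growing ones, a difference of -0.27 ± 0.16 (SE) that did not pass the test (adjusted p = 0.216, limma). At GV it was at 78.2 and 61.7 in WT and at 26.7 and 24.6 in null oocytes, 2.73-fold lower in the mean (-1.41 ± 0.16, adjusted p = 8.83e-05). At MII it was at 18.9 and 18.3 in WT and 4.12 and 3.25 in null oocytes, 5.05-fold lower (-2.07 ± 0.16, adjusted p = 1.42e-06). The null libraries lay below the WT libraries at all 3 stages, though not in growing oocytes once the ERCC factor was removed (0.018), and the GV and MII differences passed the test under every setting tried.

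H2afv encodes the second H2A.Z protein and followed another course. It was at 28.5 and 33.4 FPKM in WT growing oocytes and 22.9 and 19.9 in null growing ones (-0.51 ± 0.16, adjusted p = 0.0278, limma). At GV the genotypes overlapped, with 38.4 and 32.5 in WT and 34.6 and 30.4 in null oocytes (adjusted p = 0.559). At MII its values were 1.97 and 1.80 in WT and 1.03 and 0.695 in null oocytes (-0.64 ± 0.16, adjusted p = 0.00954). Leaving out the first WT or the second null MII library raised that adjusted p to 0.0607 and 0.0912.

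The H2A.Z pair diverged within libraries too. H2afz over H2afv was 4.74 and 3.70 in WT growing oocytes, 4.62 and 5.48 in null growing, 2.04 and 1.90 at WT GV, and 0.771 and 0.806 at null GV. At MII it was 9.58 and 10.2 in WT and 4.0 and 4.7 in null oocytes. The ratio was lower in the null libraries than in the WT libraries at GV and at MII, and the groups overlapped in growing oocytes. Most H2afz windows and no H2afv window occur elsewhere in the genome, so a ratio under or over 1 does not say which mRNA was more abundant, while the change of the ratio between groups rests on the same windows.

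**Figure D3:**
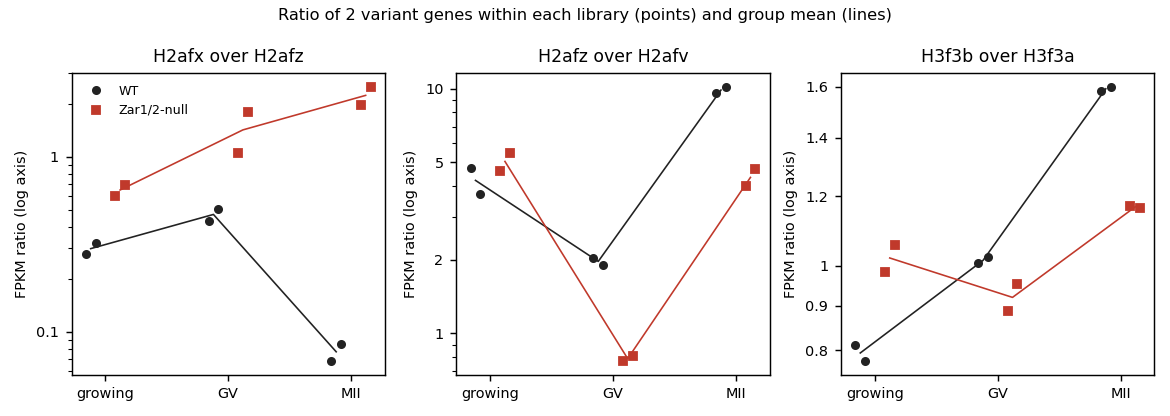
Ratio of the FPKM of 2 variant genes within each library (log axes), in WT (black circles) and Zar1/2-null (red squares) oocytes. Points are libraries and lines join group means. H2afx over H2afz is 0.0682 and 0.0859 in the WT MII libraries and 1.98 and 2.51 in the null MII libraries, H2afz over H2afv is 0.771 and 0.806 in the null GV libraries, and H3f3b over H3f3a reaches 1.58 and 1.6 at WT MII.

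H2afx, whose protein marks DNA breaks once phosphorylated, was higher in null growing oocytes, at 63.6 and 75.5 FPKM against 37.6 and 39.6 in WT (0.83 ± 0.19, adjusted p = 0.00711, limma). Without the second null growing library the adjusted p was 0.0652. At GV the genotypes overlapped, with 33.8 and 31.3 in WT and 28.1 and 44.2 in null oocytes, and the null libraries differed more from each other than the group means did. At MII the WT libraries were at 1.29 and 1.57 and both null libraries at 8.17, a 5.70-fold higher mean (1.92 ± 0.19, adjusted p = 1.51e-05). This MII difference passed the test under every setting tried.

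The FPKM of H2afx against that of H2afz was higher in null than in WT oocytes at every stage. H2afx over H2afz was 0.278 and 0.320 in WT and 0.601 and 0.693 in null growing oocytes, 0.432 and 0.507 against 1.05 and 1.80 at GV, and 0.0682 and 0.0859 against 1.98 and 2.51 at MII. H2afz is read from few unique windows, so the true order of the genes is uncertain, and the shares below are of the FPKM as listed. Among the 5 H2A variant genes, H2afz took 82.5 and 81.4% of the summed FPKM in the WT MII libraries and 26.6 and 23.5% in the null ones. H2afx took 5.63 and 6.99% in WT and 52.7 and 59.0% in null MII oocytes. At GV H2afz took 47.5 and 44.3% in WT and 23.5 and 20.4% in null libraries, and H2afx 20.5 and 22.4% and 24.8 and 36.6%. The summed FPKM of the 5 genes at MII was 22.9 and 22.5 in the WT and 15.5 and 13.8 in the null libraries. In growing oocytes the share of H2afz was 62.2 and 57.7% in WT and 49.9 and 48.1% in null libraries, and that of H2afx 17.3 and 18.5% and 29.98 and 33.36%.

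H2afj encodes H2A.J, which differs from canonical H2A mainly at its tail. It was at 6.14 and 7.67 FPKM in WT growing oocytes and 9.62 and 10.8 in null growing ones (0.51 ± 0.15, adjusted p = 0.0243, limma), and at 7.27 and 8.69 in WT GV and 16.8 and 14.6 in null GV oocytes (0.90 ± 0.15, adjusted p = 0.00102). It was the only member called higher at GV with the ERCC factor, 1.97-fold in the mean. At MII all 4 values were under 1 FPKM, 0.0809 and 0.0427 in WT and 0.517 and 0.318 in null oocytes, a range in which the pseudocount of 1 FPKM compresses differences (0.41 ± 0.15, adjusted p = 0.0616). With a pseudocount of 0.1 FPKM the difference was 1.66 (adjusted p = 0.000105).

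H2afy encodes macroH2A1, a histone with a large non-histone domain. It hardly differed in growing oocytes, at 10.04 and 9.98 FPKM in WT and 10.2 and 11.3 in null oocytes (0.09 ± 0.15, adjusted p = 0.671, limma), and overlapped at GV, at 7.15 and 5.33 in WT and 7.32 and 6.81 in null oocytes (adjusted p = 0.373). At MII it was at 0.661 and 0.779 in WT and at 1.652 and 1.405 in null oocytes (0.55 ± 0.15, adjusted p = 0.0132). The call was lost without the first WT MII library (adjusted p = 0.0828) or the first null one (0.105).

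H1f0 encodes H1.0, the linker histone of differentiated, non-dividing cells. It was at 7.85 and 7.49 FPKM in WT growing oocytes and 5.89 and 6.45 in null growing ones (adjusted p = 0.179, limma). At GV it was at 10.9 and 10.5 in WT and 3.78 and 4.95 in null oocytes, 2.45-fold lower (-1.13 ± 0.15, adjusted p = 0.000239). At MII it was at 2.35 and 2.90 in WT and 1.13 and 1.46 in null oocytes (-0.66 ± 0.15, adjusted p = 0.00559), a call lost without the first null (adjusted p = 0.0636) or the second WT (0.0551) MII library.

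**Figure D4:**
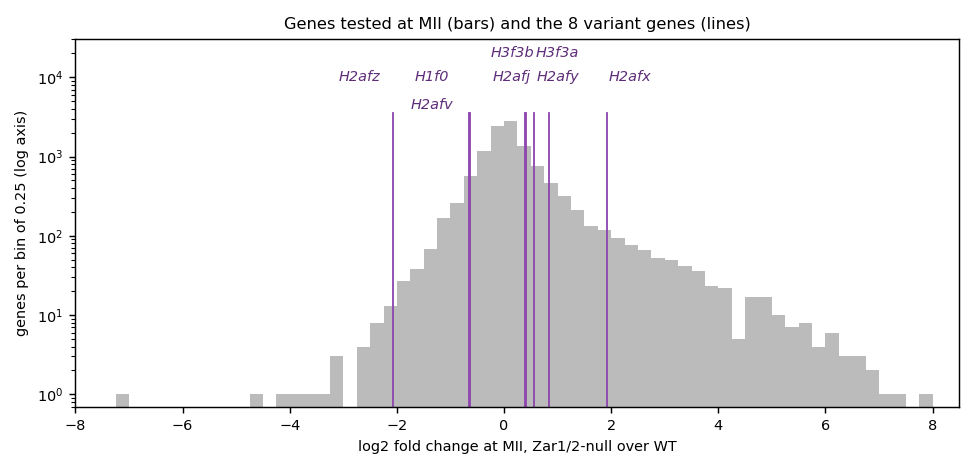
Number of the 11502 genes tested in each bin of 0.25 of the log2 fold change at MII, Zar1/2-null over WT (grey bars, log axis), with the 8 variant genes as purple lines. H2afx (1.92) lies in the upper tail and H2afz (-2.07) in the lower one, and H2afj (0.41) and H3f3b (0.39), which did not pass the test, lie near the peak.

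During growth from the growing to the GV stage, 1 of the 8 members was called higher and 2 lower in WT oocytes. H2afz fell from 129.4 to 70.0 FPKM in the mean (-0.89 ± 0.16, adjusted p = 0.00347, limma) and H2afy from 10.0 to 6.24 (-0.62 ± 0.15, adjusted p = 0.0118), and H1f0 rose from 7.67 to 10.7 (0.43 ± 0.15, adjusted p = 0.0485). The background was 2.77% of all genes higher and 28.7% lower. The H1f0 call was lost in most alternatives, and without the ERCC factor H2afz (adjusted p = 0.0504) and H2afy (0.299) did not pass, so that 2 members were higher and 0 lower.

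In null oocytes 2 members rose and 4 fell over the same interval, against 4.76% of all genes higher and 55.9% lower. H2afz fell 4.19-fold (-2.03 ± 0.16, adjusted p = 4.19e-06, limma), H2afx 1.92-fold (-0.96 ± 0.19, adjusted p = 0.00160), H2afy by 0.54 and H1f0 by 0.43 on the log2 scale. H2afv (0.58 ± 0.16, adjusted p = 0.00858) and H2afj (0.57 ± 0.15, adjusted p = 0.00764) rose. Without the ERCC factor, and also with equal medians, the split was 4 higher and 1 lower, and H2afz remained the one that fell.

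The test of the difference between these growth changes called H2afz (-1.14 ± 0.22, adjusted p = 0.00973, limma) and H1f0 (-0.86 ± 0.21, adjusted p = 0.0251), both lower in null oocytes. Over all genes 2.58% were higher and 11.3% lower in it. H1f0 rose in WT and fell in null oocytes, whereas H2afz fell in both and further in null oocytes. With equal medians neither passed (adjusted p = 0.0848 for H2afz and 0.276 for H1f0).

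From GV to MII all 8 genes fell in WT oocytes, as did 93.4% of all genes (0.104% rose), and the median was -1.96 over the members and -1.28 over all genes. H2afx (22.7-fold) and H2afv (18.8-fold) fell most among the members with at least 1 FPKM at MII. H3f3b (2.31-fold), H3f3a (3.63-fold), H2afz (3.76-fold) and H1f0 (4.07-fold) fell least. These directions rest on the ERCC factor: without it 1 member rose and 4 fell, and with equal medians 4 rose and 3 fell, while the median of all genes moved from -1.28 to -0.43 and to 0.14. H2afx, H2afv and H2afj fell and passed the test under all 3 scalings, and H3f3b fell under the ERCC scaling and rose under the other 2.

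In null oocytes 7 genes fell from GV to MII, against 68.7% of all genes (0.209% rose), and H3f3b (-0.36 ± 0.18, adjusted p = 0.0931, limma) did not pass the test, though it did with a replicate block (adjusted p = 0.0372). H2afv fell 37.7-fold in the mean, to under 1 FPKM, H2afz 6.94-fold, H2afx 4.42-fold, H1f0 3.37-fold and H3f3a 1.63-fold. The median was -1.83 over the members and -0.72 over all genes. Without the ERCC factor 2 members rose, H3f3a and H3f3b, and 6 fell. With equal medians the same 2 rose and 4 fell.

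The difference between genotypes in the GV to MII change was called for 4 members. It was 1.80 ± 0.27 (SE) for H2afx (adjusted p = 0.000550, limma), 1.14 ± 0.26 for H3f3a (adjusted p = 0.00684), 0.84 ± 0.25 for H3f3b (adjusted p = 0.0259) and -0.66 ± 0.22 for H2afz (adjusted p = 0.0402). A higher value, meaning a smaller fall in null oocytes, was called in 33.9% of all genes and a lower one in 0.643%. H2afz was thus 1 of 74 genes called in its direction. H2afx and H2afz were also called without the ERCC factor and with equal medians, but H3f3a and H3f3b under neither, and H2afv was called lower under both (-1.49 and -1.73), giving 1 higher and 2 lower members.

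**Figure D5:**
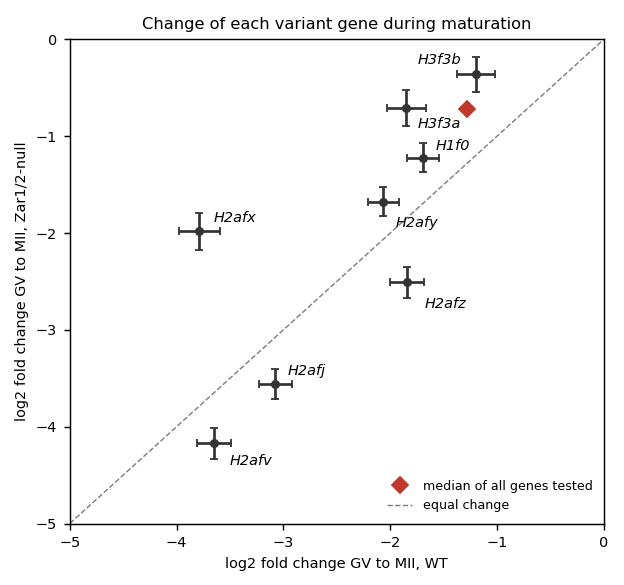
Log2 fold change from GV to MII in WT (x axis) and Zar1/2-null oocytes (y axis), with standard errors, for each variant gene, and the median of all genes tested (red diamond). The dashed line marks equal change. H2afx lies farthest above the line (-3.79 in WT and -1.98 in null oocytes) and H2afz below it (-1.85 and -2.51).

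The factors that place or read the variants were taken as lists. Of 9 genes for H3.3 deposition, 1 was lower in null growing oocytes, 6 were lower at GV, and 2 were higher and 1 lower at MII. Over all genes 24.4% were lower in growing oocytes, 40.6% were lower at GV, and 21.5% were higher and 10.3% lower at MII, so the counts in growing oocytes and at MII are near or under these shares. Dek, a chromatin protein linked to H3.3, was lower at all 3 stages: 69.4 and 66.6 FPKM in WT against 39.2 and 38.0 in null growing oocytes, 64.3 and 47.9 against 30.7 and 28.5 at GV, and 32.8 and 32.5 against 18.1 and 17.5 at MII (-0.80, -0.89 and -0.84, each ± 0.15, with adjusted p = 0.00241, 0.00111 and 0.00147, limma). The medians of the list were -0.03, -0.52 and -0.05, beside -0.16, -0.38 and 0.06 over all genes.

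Of 11 tested genes for H2A.Z exchange, none passed in growing oocytes by limma, 4 were lower at GV, and 4 were higher and 1 lower at MII. The GV count is near the 40.6% of all genes that were lower there, and at MII 21.5% of all genes were higher and 10.3% lower. The medians were 0.03, -0.46 and 0.38. Ruvbl1, an ATPase of the exchange complexes, was at 19.3 and 17.7 FPKM in WT and 8.27 and 8.87 in null GV oocytes (-1.02 ± 0.15, adjusted p = 0.000416, limma). Its partner Ruvbl2 was at 1.56 and 3.69 in WT and 6.87 and 6.66 in null MII oocytes (1.16 ± 0.26, adjusted p = 0.00487).

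Of 7 tested genes for H2A.X signalling, 1 was lower in growing oocytes, 6 at GV and 2 at MII, and none was higher. Over all genes 24.4%, 40.6% and 10.3% were lower at these stages, and 10.6%, 2.83% and 21.5% higher. The list had medians of -0.16, -0.65 and -0.14. Rnf168, a ubiquitin ligase that acts on H2A at DNA breaks, was at 25.9 and 24.3 FPKM in WT and 15.03 and 11.45 in null growing oocytes (-0.88 ± 0.16, adjusted p = 0.00139, limma). It was at 6.79 and 8.26 in WT and 3.90 and 3.46 in null MII oocytes (-0.86 ± 0.16, adjusted p = 0.00124). Wdr5 was on this list as chosen, though it is a subunit of histone H3 lysine methyltransferase complexes. It was at 44.8 and 43.3 FPKM in WT and 16.2 and 18.4 in null GV oocytes (-1.30 ± 0.17, adjusted p = 0.000228, limma).

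Of 5 tested partners of macroH2A and linker histones, none passed in growing oocytes, 3 were lower at GV, and 2 were higher and 2 lower at MII, with medians of -0.13, -0.47 and -0.0040. The shares over all genes were 40.6% lower at GV and 21.5% higher and 10.3% lower at MII. Setdb1, a histone H3 lysine methyltransferase, was at 35.7 and 34.4 FPKM in WT and 25.02 and 22.20 in null GV oocytes (-0.55 ± 0.16, adjusted p = 0.0194, limma). Ptma, a linker histone chaperone, was at 12.8 and 11.1 in WT and 33.2 and 31.7 in null MII oocytes (1.37 ± 0.17, adjusted p = 9.12e-05).

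Of 8 other variant genes found in the table, 4 reached 1 FPKM. Among them 1 was lower at GV and 1 higher at MII, and these are named because the counts are small. Over all genes 40.6% were lower at GV and 21.5% higher at MII, so the counts are near or under these shares. Cenpa, the centromeric H3, was at 83.5 and 75.8 FPKM in WT and 45.7 and 60.3 in null GV oocytes. H1foo, the oocyte linker histone, was at 1820 and 1700 FPKM in WT and 3254 and 2672 in null MII oocytes. Its level per length was far above that of H1f0 in every group.

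The genes with the course most like that of each member over the 12 libraries were found by the root mean square difference of centred log2(FPKM + 1), among 4272 genes that averaged 10 FPKM or more. H3f3a was nearest to U2af1 (0.111) and Ptplb (0.119), H3f3b to 1700019E19Rik and Lamtor2 (both 0.123), H2afy to Rwdd1 (0.158) and Nop56 (0.177), and H2afv to Tmem60 (0.166) and Anxa2 (0.178). H1f0 was nearest to Zfp961 (0.180) and Nin (0.199), H2afx to Tk1 (0.217) and Mettl11a (0.219), and H2afj to 1700113I22Rik (0.237) and 5133401N09Rik (0.311). H2afz had the most distant neighbours of the 8, Ect2 (0.330) and Pdcd10 (0.364). Between members the smallest distance was that of H3f3a and H3f3b (0.313), larger than the distance of either to its nearest other gene.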

How the data were processed

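Each library was assigned to genotype, stage and replicate from its label. The authors trimmed reads to 50 bases, mapped them to mm9 with TopHat2 2.1.1, kept unique matches, assembled and quantified them on UCSC gene models with Cufflinks 2.2.1, and deposited FPKM multiplied by the ratio of the ERCC share of reads in WT growing oocytes to that in the sample. The factor of each library was recovered from the 6-digit form of the FPKM. The table holds no counts, and 33.5% of a library's values were 0 on average, which can be failed estimates.

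Here log2(FPKM + 1) was modelled with limma 3.58.1 (R 4.3.3), with a term for each of the 6 groups over all 12 libraries and an intensity trend. Genes with at least 1 FPKM in any library were kept (11502), Benjamini-Hochberg adjustment ran over all of them, and a fold change on this scale understates changes of low genes. The statements of fold are ratios of group means. In a test on simulated data, 200 of 11502 genes were given a 3-fold change at MII. They were drawn only from genes over 10 FPKM at WT MII, and 94.5% of them were recovered with 9 false calls. The simulated noise was independent between genes and libraries. An error shared by a whole library, such as that of its ERCC factor, was not simulated, so these figures do not cover it. Of the members only H3f3a, H3f3b and H2afz were over that level, so the recovery does not describe the others. Windows of 50 bases were matched to the genome exactly, and copies were found with blastn 2.17.0.

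The 8 genes, the lists, the tests and the alternatives were chosen with earlier results of these data known. Named genes are the 8 members, the targeted genes, the called list gene with the largest change per list and stage, and the 2 nearest genes in course. The alternatives were no ERCC factor, equal library medians, a pseudocount of 0.1 FPKM, no filter, a mean of at least 5 FPKM, a replicate block, the libraries of a comparison alone, no intensity trend, and each library left out. Percentages of all genes called are those of the fit to the ERCC-scaled values and do not carry over to the alternatives.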

Additional observations from a re-analysis of the deposited data

Results flagged for a closer look

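The genotype effect differed between stages, by the test of that difference itself in limma, for 6 pairs of a gene and an interval. During growth the change in Zar1/2-null oocytes minus that in WT oocytes was -1.14 (log2 scale) for H2afz and -0.86 for H1f0. From GV to MII it was 1.80 for H2afx, 1.14 for H3f3a, 0.84 for H3f3b and -0.66 for H2afz. H2afz is the one gene on both lists, though its maturation value was near the threshold (adjusted p = 0.0402, limma). Neither growth value passed the test with equal medians. The H3f3a and H3f3b values fell to 0.45 and 0.15 without the ERCC factor and no longer passed the test, whereas that of H2afx was past it under every alternative.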

How the results depend on the processing

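Of the genotype differences at GV and MII, those of H2afz (both stages) and H2afx (MII) passed the test under every alternative, as did those of H2afj and H1f0 at GV and H3f3a at MII. The number of members called changed by over 1.5 times in these cases. In growing oocytes (3 called as reported) it was 1 with a pseudocount of 0.1 FPKM, 1 with the libraries of the comparison alone, and 0 to 4 with a library left out, 0 without the second null growing library. At GV (3) it was 5 with equal library medians. From growing to GV it was 1 in WT (3) with equal medians, 1 with those libraries alone and 1 to 3 with a library left out, lowest without either WT growing library or the second WT GV one, and in null oocytes (6) it was 3 to 6, lowest without the second null growing library. From GV to MII in WT (8) it was 5 without the ERCC factor. For the growth difference between genotypes (2) it was 1 without the ERCC factor, 0 with equal medians, 1 with a pseudocount of 0.1 FPKM, 1 with a mean of at least 5 FPKM, 1 with those libraries alone and 1 to 3 with a library left out, lowest without any 1 of the first or second WT growing, first or second WT GV, first null GV or second null growing libraries. For the maturation difference (4) it was 2 with no filter, 2 with those libraries alone and 2 to 5 with a library left out, lowest without the first null GV or the second WT MII library. The causes were not tested.

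Log2 values changed sign as follows. Without the ERCC factor the genotype difference was 0.018 for H2afz and 0.18 for H3f3b in growing oocytes, and 0.33 for H2afv, 0.14 for H3f3a and 0.0015 for H3f3b at GV. The WT growth change was 0.14 for H2afx and 0.30 for H3f3a, the null growth change 0.47 for H3f3b and 0.040 for H1f0, the WT maturation change 0.55 for H3f3b, the null maturation change 0.35 for H3f3a and 0.70 for H3f3b, and the maturation difference -0.33 for H1f0. With equal medians the genotype difference was 0.074 for H3f3b in growing oocytes, and 0.46 for H2afv, 0.28 for H3f3a and 0.14 for H3f3b at GV. The WT growth change was then 0.10 for H2afx and 0.26 for H3f3a, and the null growth change 0.14 for H2afy, 0.68 for H3f3b and 0.21 for H1f0. The WT maturation change was 0.79 for H2afz, 0.85 for H3f3a, 1.499 for H3f3b and 0.61 for H1f0, and the null one 1.03 for H3f3a and 1.38 for H3f3b. The growth difference was 0.067 for H3f3b, and the maturation difference -0.088 for H2afy, -0.12 for H3f3b and -0.61 for H1f0. With a pseudocount of 0.1 FPKM the maturation difference was 0.69 for H2afj. With a library left out, uncalled values crossed 0 for H3f3b in growing oocytes (-0.24 to 0.033), H2afx (-0.20 to 0.43) and H2afy (-0.016 to 0.35) at GV, the WT growth change of H3f3a (-0.28 to 0.10), the null growth change of H3f3a (-0.13 to 0.25) and H3f3b (-0.23 to 0.052), and the growth difference of H2afy (-0.11 to 0.26) and H3f3a (-0.035 to 0.34).

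Same-numbered libraries deviated together weakly (r of -0.12 to 0.16 over the 15 pairs of groups), and their scaling refers to the same WT growing library. No label ties them otherwise. With a replicate block 4 members were called in growing oocytes, 4 at GV, 6 at MII, and 8 in the null change from GV to MII, with H3f3a (growing) and H3f3b (GV, and GV to MII) as the added calls, and no other call changed. Unknown depth limits all values under 1 FPKM.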
